A study of Homo sapiens with 6 samples.

Results

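Adhesion to the extracellular matrix was examined in Huh7 cells, an established human hepatoma line, through 47 genes chosen by name among the 50868 genes of the deposited table. They were 9 integrin alpha subunits, 5 integrin beta subunits, 7 laminin chains, 7 collagen chains, 9 matrix glycoproteins and proteoglycans, 4 matrix receptors that are not integrins and 6 proteins that link integrins to the cell interior. In 3 libraries the cells carried a PLC5-CIR plasmid that overexpresses hsa_circ_0098181, a circular RNA, and in 3 they carried the matching control plasmid. Both groups were the same cell line in the same medium, received their plasmid with Lipofectamine 2000 and gave total RNA after 48 h of transfection. No selection of transfected cells is described, so cells without a plasmid may be among those sequenced. The labels give neither a batch nor the origin of the replicates, so p-values measure only the spread between these libraries, which may be technical.

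Integrins are pairs of an alpha and a beta chain that span the plasma membrane and hold matrix proteins such as fibronectin, laminin and collagen on the outside. Inside the cell their tails recruit talin, kindlin, vinculin, paxillin and kinases, which together build the focal adhesions that tie the actin cytoskeleton to the matrix. Hepatocytes secrete fibronectin into the plasma and rest on a sparse matrix, whereas carcinoma cells use integrins and laminins to spread and migrate. The study measured migration and invasion in other assays, and the question here is whether transcripts of this adhesion machinery differed between the plasmids.

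Library totals ran from 11130902 to 14138262 gene counts. The host gene of the circle, SOX5, held 1901 to 2392 CPM (counts per 1e6 counts of the TMM-scaled library) with overexpression and 31.2 to 41.7 CPM with the control plasmid, which fits the labels. Mitochondrial genes held 9.29% of the counts in control 1 and 6.32% to 7.04% in the other libraries. All 9 markers of hepatocytes and hepatoma had a mean of at least 1 CPM and summed to 30519 to 35771 CPM, here of the unscaled totals. Of 8 fibroblast and stellate cell markers 5 reached 1 CPM, their sum was 33.2 to 36.5 CPM with overexpression and 32.4 to 37.4 CPM in controls, and POSTN was at 0 in every library. PECAM1 alone of 4 endothelial markers reached 1 CPM, with a sum of 55.1 to 55.5 against 46.7 to 57.6 CPM and CDH5 at 0. The 4 biliary markers summed to 313 to 354 against 321 to 354 CPM. The 4 leukocyte markers summed to 496 to 531 CPM with overexpression and 426 to 472 CPM in controls, nearly all of it LYZ, and 3 of the 4 reached 1 CPM. PTPRC, which marks leukocytes in general, was at 1.202, 1.227 and 1.876 CPM against 0.898, 0.767 and 1.31 CPM, the macrophage marker CD68 at 6.71 to 12.5 CPM and the T cell marker CD3E at 0 to 0.144 CPM. The part of this sum in the results below was not tested.

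The study named miR-18a-3p as a microRNA bound by the circle, so its mature sequence and its matches among the adhesion genes are shown first. It is read from chr13:91350797-91350819 on the plus strand (RefSeq, GRCh38.p14), and the capitals mark the seed, bases 2 to 8.
miR-18a-3p: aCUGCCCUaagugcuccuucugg
The heptamer complementary to that seed, AGGGCAG, was searched on the transcript strand in the 3′ UTR of the longest coding transcript of each gene (GENCODE 29). It occurred 12 times in 9 of the 47 genes. Windows of 23 bases around the matches (GRCh38, heptamer in capitals) are given for the 5 of those genes that were tested and had a mean level of 2 CPM or more.
COL18A1, chr21:45513309-45513331, plus strand: cagcacacAGGGCAGtgagggag
COL18A1, chr21:45513369-45513391, plus strand: ccagatgcAGGGCAGtcattggc
COL18A1, chr21:45513573-45513595, plus strand: gtggactcAGGGCAGcgccaggc
VCL, chr10:74118973-74118995, plus strand: ccactggaAGGGCAGagtagcca
VCL, chr10:74119531-74119553, plus strand: aaaatgagAGGGCAGtgtttcct
PXN, chr12:120211933-120211955, minus strand: ggcagggaAGGGCAGgcagggtc
TLN1, chr9:35697284-35697306, minus strand: tttctcccAGGGCAGtaggagag
CD44, chr11:35230183-35230205, plus strand: gaccaaggAGGGCAGcactgttt
The other genes with a match were ITGA7, ITGB3, COL4A1 and COL5A1. Among tested genes the share with a match was 17.9% (7 of 39) for the adhesion genes and 18.9% (2379 of 12580) for all genes with a 3′ UTR. COL18A1, with 3 matches, had a log2 fold change of 0.17, and the 2 matches of VCL stood beside a value of -0.19. The median log2 fold change was -0.165 in the 7 adhesion genes with a match and -0.089 in the 32 without, and it was -0.023 and 0.008 in all genes with and without one. Genes with a match also had longer 3′ UTRs, with a median of 1612 against 1194 bases in the adhesion genes and 2663 against 1065 bases in all genes. A heptamer match is a description of the sequence and not evidence of binding.

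Of the 47 genes, 39 had enough counts to be tested and 8 did not. Each library gave 0.936% to 1.187% of its counts to the 47 genes, and FN1 alone took 49.2% to 60.2% of that share. The untested genes were mainly collagens. COL1A1, a chain of fibrillar type I collagen, had 7, 5 and 4 counts in overexpression 1 to 3 and 3, 2 and 12 in control 1 to 3. COL4A1 and COL4A2, the 2 common chains of basement membrane collagen, had 3 to 16 and 3 to 8 counts per library. COL6A2 had 0 to 2 counts and COL5A1 a single count in overexpression 2. The integrin ITGA9 had 0 to 11 counts, LAMB3, a chain of the epithelial laminin-332, had 0 to 9, and TNC, the matrix protein tenascin-C of wounds and tumour stroma, had 0 to 3. A floor of 3 counts corresponded to 0.212 to 0.270 CPM in these libraries. The floor covers counting error only, since reads amplified by PCR, without molecular identifiers, do not each stand for 1 molecule.

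Levels were compared between genes as CPM per kilobase of merged exon length, averaged over the 6 libraries. This length merges all annotated exons of a gene and is the same in every library. A step between genes that holds in 6 of 6 libraries therefore does not test the lengths. FN1, fibronectin, stood first at 331 CPM per kb, 3.91 times NID1, the laminin-binding linker of basement membranes, at 84.7. Among alpha subunits ITGAV, the partner of several beta chains in receptors for vitronectin and fibronectin, led with 47.4 CPM per kb. It was followed by the laminin receptor chain ITGA6 with 26.6, the fibronectin receptor chain ITGA5 with 4.88 and the collagen receptor chains ITGA2 and ITGA1 with 4.41 and 2.28. ITGAE, the alpha chain that binds E-cadherin, had 1.43, and ITGA7 and ITGA3, both laminin receptor chains, had 0.246 and 0.110. ITGA5 lay above ITGA2 in 5 of 6 libraries and ITGA7 above ITGA3 in 5 of 6, so these neighbours did not separate in every library, while each step from ITGAV to ITGA5 and from ITGA2 to ITGA7 held in 6 of 6.

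The beta subunits fell into 2 abundant and 3 rare genes. ITGB1, which pairs with most alpha chains, had 62.8 CPM per kb and ITGB5, a partner of ITGAV, had 22.3, whereas ITGB4, ITGB3 and ITGB8 had 0.286, 0.158 and 0.0946. ITGB5 exceeded ITGB4 by 77.9 times. ITGB4 was above ITGB3 in 4 of 6 libraries and ITGB3 above ITGB8 in 5 of 6. Within a library the ITGB1 level was 2.48 to 3.47 times that of ITGB5 and 168 to 342 times that of ITGB4, the beta chain of hemidesmosomes.

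Laminin is a trimer of an alpha, a beta and a gamma chain. LAMB1 led the laminins at 71.6 CPM per kb, followed by LAMC1 at 27.1, LAMB2 at 10.0, LAMA5 at 6.99, LAMA4 at 2.91 and LAMA3 at 0.431, and every step of this order held in 6 of 6 libraries. The LAMB1 level was 2.28 to 3.01 times that of LAMC1 in a library and 6.58 to 8.19 times that of LAMB2. LAMA5 reached only 0.210 to 0.280 times the level of LAMC1. COL18A1, whose chain carries heparan sulfate and releases endostatin, was the leading collagen of the 7 at 13.3 CPM per kb, 12.8 times COL6A1 at 1.04, and COL4A1 and COL4A2 stood at 0.0378 and 0.0226.

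Behind FN1 and NID1, the matrix proteins were the heparan sulfate proteoglycan AGRN at 28.5 CPM per kb, TGFBI at 28.3, the large basement membrane proteoglycan HSPG2, perlecan, at 11.7, THBS1, thrombospondin-1, at 7.22, SPARC at 0.662 and NID2 at 0.191. AGRN was above TGFBI in only 2 of 6 libraries, so their order was not settled. Of the receptors, the syndecans SDC1 and SDC2 had 38.3 and 9.98 CPM per kb, SDC4 had a mean of 46.7 with overexpression and 47.2 in controls, and the hyaluronan receptor CD44 had 0.376. Inside the cell TLN1, talin, which opens integrins by binding the beta tail, had 41.3, the scaffold ILK 25.5 and the actin linker VCL 17.0. PXN, paxillin, FERMT2, kindlin-2, and PTK2, focal adhesion kinase, had 9.96, 9.73 and 6.78, and PXN lay above FERMT2 in 2 of 6 libraries. The gene in first place in each of the 7 roles was the same by the deposited FPKM of the controls and by the means of the overexpression libraries.

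**Figure D1:**
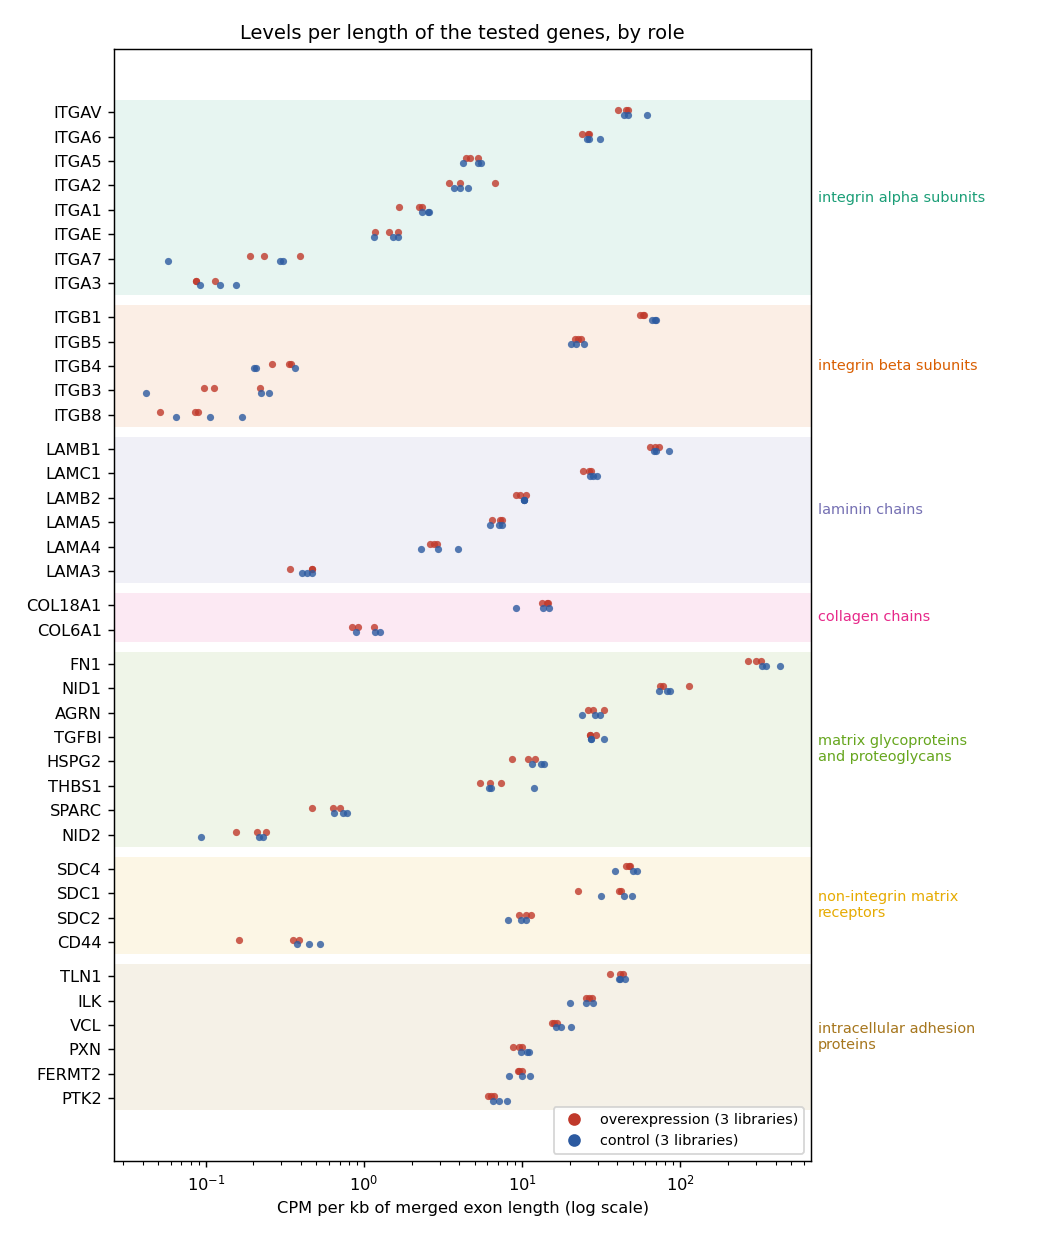
Levels of the 39 tested genes in CPM per kb of merged exon length on a log axis, 1 point per library, red for overexpression and blue for control, ordered by mean level within each role. FN1 lies farthest right at a mean of 331, and red and blue points overlap for all genes but ITGB1 and FN1.

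With the circle overexpressed, most adhesion genes had slightly lower values, and none passed the test. Of the 39 tested genes 28 (71.8%) had a negative log2 fold change and 11 a positive one, with a median of -0.108 and a range from -0.59 to 0.29. Over all 15055 tested genes 49.5% were negative and the median was 0.002. Among genes with a mean of at least 10 CPM the negative share was 71.4% of 28 adhesion genes, with a median of -0.094, and 50.6% of 9949 genes, with a median of -0.002. 37 of the 39 lay within 0.5 of zero on the log2 scale. By the quasi-likelihood test of edgeR, adjusted over all genes by the method of Benjamini and Hochberg, 0 of the 39 passed an adjusted p of 0.05, against 6 of all genes (0.0399%). The smallest adjusted p was 0.797. DESeq2 and limma on log2(FPKM + 1) also called 0 adhesion genes. At an unadjusted p under 0.05 edgeR had 0 higher, where 2.42% of all genes were, and 2 lower, ITGB1 and FN1, where 3.08% were. At that threshold DESeq2 had 3 of 39 adhesion genes and 660 of 15055 genes, in either direction. Limma, which tested 29 adhesion genes, had 1 of these and 708 of 11746 genes. ITGB1 and FN1 were the only adhesion genes whose 3 overexpression values all lay below the 3 control values, and 0 lay wholly above. Over all genes 6.50% were wholly below and 6.40% wholly above. The share of adhesion genes, 2 of 39, was thus close to these backgrounds. In bulk RNA, fewer cells that express a gene and less RNA per cell cannot be told apart.

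Among the fits that left out 1 library, the median moved most without control 3. Without control 3 it was -0.040, and without any other single library it lay between -0.130 and -0.108. When each library in turn was left out, 23 to 32 of 39 values were negative. The tested adhesion genes were longer and richer in G and C than all tested genes, with a median merged exon length of 7910 against 4615 bases and a GC content of 50.7% against 47.6%. A fitted trend of each library with length and GC content was -0.065 in overexpression 1 and 0.022 in control 1 at the median adhesion gene, on the log2 scale. With these trends removed the median log2 fold change was -0.056 and 26 of 39 values were negative. The trend was 0.005 and -0.000 in overexpression 2 and 3 and 0.013 and 0.005 in control 2 and 3. The part of these trends in the difference between the groups was not tested.

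**Figure D2:**
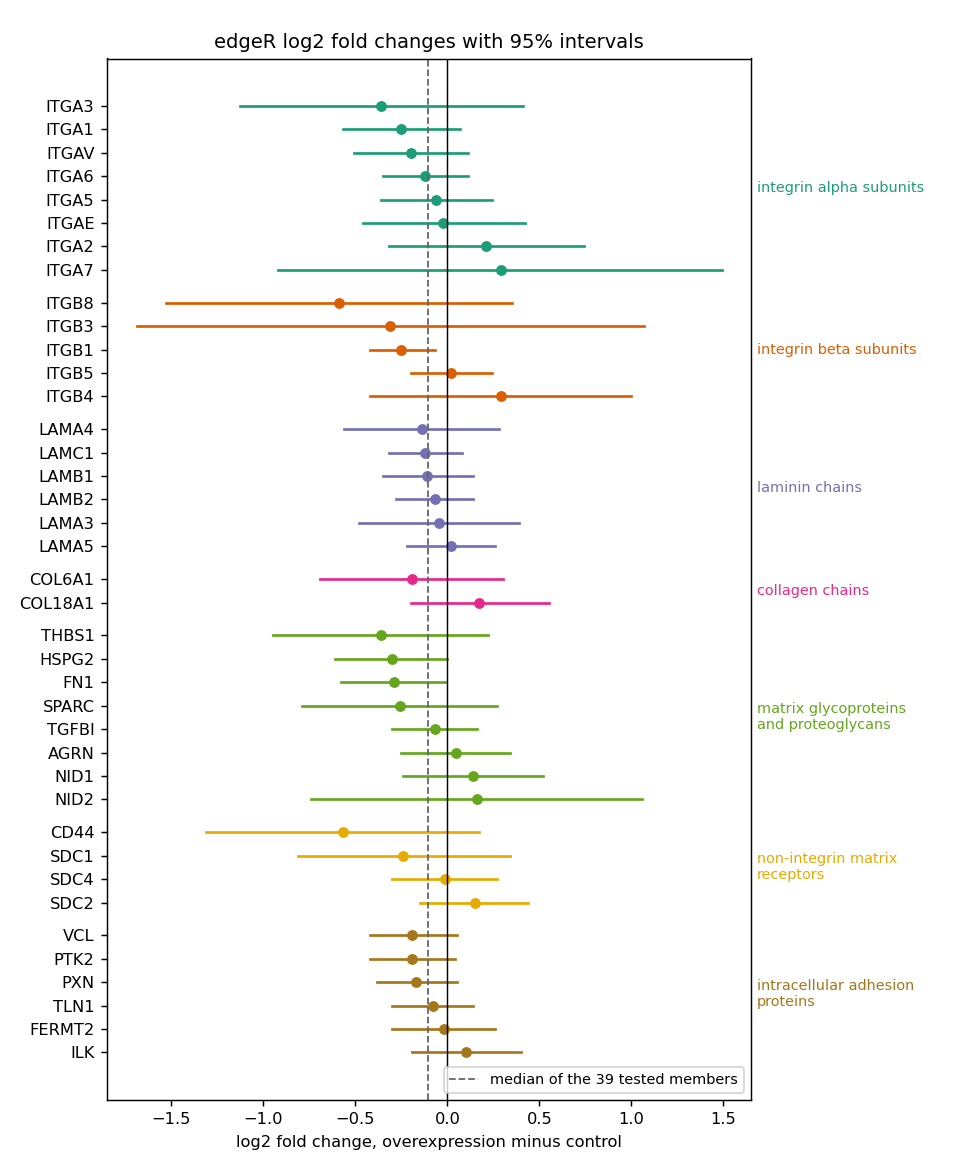
Log2 fold change (overexpression minus control, horizontal axis) of the 39 tested genes from edgeR, by role, with points for the estimate and bars for the 95% interval. The dashed line marks their median of -0.108, and only the intervals of ITGB1 (-0.42 to -0.07) and FN1 (-0.58 to -0.01) leave out zero.

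ITGB1 (ENSG00000150093, chr10:32900319-33005792, minus strand) was the clearest of the integrins. Its levels were 348, 336 and 352 CPM in overexpression 1 to 3 and 421, 414 and 395 CPM in control 1 to 3. All overexpression libraries lay below all control libraries, and the spread within each group was small, at 345 ± 8.45 against 410 ± 13.5 CPM (SD, n = 3 each). Its log2 fold change of -0.25 (SE 0.077), a level 0.842 times that of control, came with an unadjusted edgeR p of 0.0119 and an adjusted p of 0.797. An exact two-sided permutation test gave p = 0.1, which is the lowest p that 3 against 3 libraries can reach. The fold change stayed between -0.27 and -0.23 when any single library was left out, and between -0.25 and -0.21 under the other alternatives.

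The other abundant beta chain, ITGB5, differed little, with 151, 145 and 138 CPM against 130, 141 and 157 CPM and a log2 fold change of 0.017 (95% interval -0.20 to 0.24). Among the rare beta chains, ITGB8, an activator of latent TGF-beta, had 0.777, 1.35 and 1.29 CPM against 2.58, 1.61 and 0.986 CPM. These groups overlapped, and the log2 fold change of -0.59 had a standard error of 0.41. It ran from -0.87 to -0.19 with 1 library left out, and was -0.19 without control 1 and -0.37 without overexpression 1. ITGB4 and ITGB3 had log2 fold changes of 0.29 and -0.31 on 146 and 52 counts in all, with intervals of -0.42 to 1.00 and -1.69 to 1.07. The 5 beta subunits thus comprised 2 positive and 3 negative values, with a median of -0.247 that was 0.008 without control 2, -0.159 without overexpression 1, -0.090 without overexpression 2 and -0.079 without control 3.

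Of the 8 tested alpha subunits 2 were positive and 6 negative, with a median of -0.090 that was -0.146 without control 1. ITGAV (ENSG00000138448, chr2:186590065-186680901, plus strand) had 332, 383 and 372 CPM with overexpression and 361, 384 and 506 CPM in controls. Control 3 stood above the other 5 libraries, and the groups overlapped. The log2 fold change of -0.20 (SE 0.14, unadjusted edgeR p 0.170) was -0.040 without control 3 and -0.30 without control 1. ITGA3, the chain with the largest change in size among those above 1 CPM, had 0.848, 0.855 and 1.13 CPM against 1.2, 1.53 and 0.903 CPM, and its value of -0.36 had an interval of -1.13 to 0.41. ITGA6 and ITGA5 had values of -0.12 and -0.060. The collagen receptor chains pointed in opposite directions, ITGA1 at -0.25 and ITGA2 at 0.21, but ITGA2 rested on overexpression 1, with 52.9 CPM there and 27.1 to 35.8 CPM in the other 5 libraries. Without overexpression 1 its value was -0.13. ITGAE was at -0.022. ITGA7 had 4 counts in control 1 and 15 to 35 in the others, and its value of 0.29 was -0.14 without control 1. Of 15 ratios of length-scaled levels that were formed between adhesion genes, ITGAV to ITGB5 alone had groups that did not overlap, at 1.73, 2.08 and 2.11 with overexpression and 2.18, 2.13 and 2.53 in controls. The closest values, 2.11 in overexpression 3 and 2.13 in control 2, were nearly level, and the highest was in control 3, where ITGAV was high. Of the levels of single genes, 6.50% were wholly below and 6.40% wholly above the controls over all tested genes. That ratio was not tested. Part of the exons of ITGA1 are shared with PELO, of ITGAE with GSG2 and of ITGA7 with METTL7B, and how reads in shared exons were counted is not stated.

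**Figure D3:**
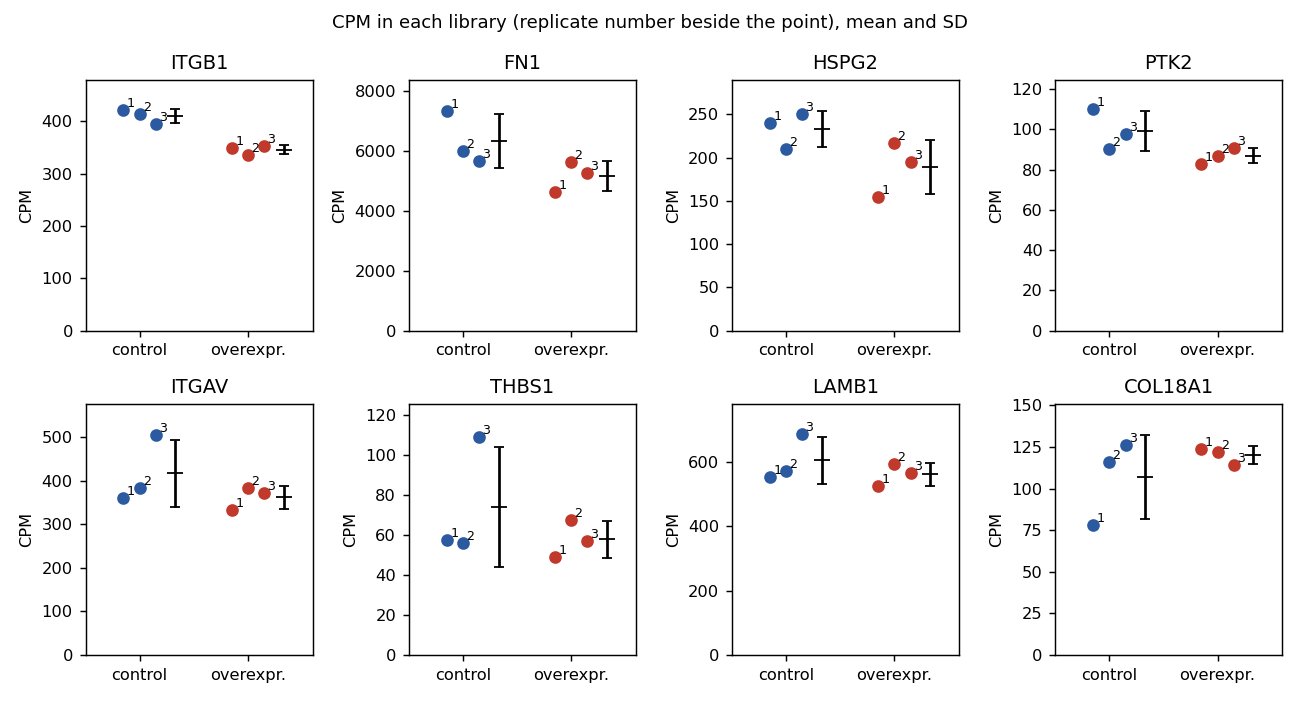
CPM of 8 adhesion genes in each library, control in blue and overexpression in red with the replicate number beside each point, and the mean with its SD (n = 3) as a bar. ITGB1 and FN1 are lower in all 3 overexpression libraries, HSPG2 and PTK2 overlap at 1 point each, and control 3 stands out in ITGAV, THBS1 and LAMB1 as control 1 does in COL18A1.

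The laminin chains had the narrowest range of any role with more than 2 tested genes, from -0.14 to 0.02, with 1 positive and 5 negative values. LAMB1 (ENSG00000091136, chr7:107923799-108003255, minus strand) had 524, 594 and 565 CPM against 553, 573 and 688 CPM. The groups overlapped, with a log2 fold change of -0.11 (SE 0.11). LAMA4, the alpha chain of vascular and mesenchymal laminins, had 30.4, 32.1 and 33.5 CPM against 45.7, 33.9 and 26.5 CPM. Its controls spanned the overexpression values on both sides, and the value of -0.14 was 0.084 without control 1. LAMC1, the gamma chain shared by most laminins, had a value of -0.12, LAMB2 of -0.068, LAMA3 of -0.044 and LAMA5 of 0.021. LAMA5 shares 244 exonic bases with ADRM1 on the opposite strand, which had 24077 counts in all against 7541 for LAMA5.

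Only 2 collagen chains could be tested. COL18A1 (ENSG00000182871, chr21:45405137-45513720, plus strand) had 124, 122 and 114 CPM against 78.3, 116 and 126 CPM. Control 1 was the low library, and without it the log2 fold change of 0.17 (SE 0.16) was -0.007. COL18A1 shares 1401 exonic bases with SLC19A1 on the opposite strand, which had 3272 counts in all against 8640. COL6A1, a chain of microfibrillar type VI collagen, had 4.88, 4.49 and 6.21 CPM against 6.26, 4.76 and 6.73 CPM, an overlap, with a value of -0.19 (SE 0.22).

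FN1 (ENSG00000115414, chr2:215360440-215436172, minus strand) was the other gene whose groups did not overlap. It had 4602, 5618 and 5237 CPM with overexpression and 7327, 5982 and 5651 CPM in controls, or 5153 ± 513 against 6320 ± 888 CPM (SD, n = 3 each). The closest pair, overexpression 2 and control 3, was nearly level, and control 1 was far above the rest. Its log2 fold change of -0.29 (SE 0.12) came with an unadjusted edgeR p of 0.0447 and an adjusted p of 0.797. An exact two-sided permutation test gave p = 0.1, again the smallest possible. With 1 library left out the value ran from -0.37 to -0.17, and it was -0.17 without control 1. With the length and GC trends removed it was -0.14. The groups overlapped with upper-quartile scaling, with limma on log2(FPKM + 1) and with the trends removed.

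HSPG2 (ENSG00000142798, chr1:21822245-21937297, minus strand) had a fold change of the same size, -0.30 (SE 0.13, unadjusted edgeR p 0.0525). Its levels were 155, 217 and 195 CPM with overexpression and 240, 210 and 250 CPM in controls, and overexpression 2 lay above control 2. DESeq2 gave HSPG2, ITGB1 and FN1 an unadjusted p under 0.05. THBS1 had the largest value in size of the matrix proteins, -0.36 (SE 0.26). It had 49.3, 67.4 and 57.0 CPM against 57.8, 56.0 and 109 CPM, so control 3 alone was high, and without it the value was 0.026. SPARC, a matricellular protein that binds collagen, and TGFBI, an adhesion protein induced by TGF-beta, had values of -0.26 and -0.069. NID1, NID2 and AGRN had values of 0.14, 0.16 and 0.048, and NID1 was highest in overexpression 1, at 671 CPM against 429 to 506 CPM elsewhere. Without overexpression 1 the NID1 value was -0.088. The 8 tested genes of this role had 3 positive and 5 negative values and a median of -0.164, which was 0.026 without control 3 and -0.079 without overexpression 3. NID2 shares 1915 exonic bases with C14orf166 on the opposite strand, which had 6716 counts against its own 92.

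Of the matrix receptors, SDC4, the syndecan of focal adhesions, had 125, 118 and 124 CPM against 101, 131 and 138 CPM, with a log2 fold change of -0.015 (95% interval -0.30 to 0.27) that was 0.001 with upper-quartile scaling. CD44 had 3.89, 3.56 and 1.61 CPM against 3.78, 4.50 and 5.26 CPM. The low library was overexpression 3, with 20 counts, and the value of -0.57 (SE 0.32) was -0.28 without it. Without overexpression 1 the CD44 value was -0.79. SDC1, the main syndecan of epithelia, was also lowest in overexpression 3, at 80.5 CPM against 113 to 177 CPM in the other 5 libraries, with a value of -0.24 that was 0.005 without it. SDC2 had a value of 0.15. The receptors had 1 positive and 3 negative values and a median of -0.125. It was -0.009 without overexpression 3, -0.034 without control 2, -0.073 without control 3, -0.211 without overexpression 1, -0.269 without control 1 and 0.021 with limma on log2(FPKM + 1), which left out CD44.

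The intracellular proteins lay within a narrow range, from -0.19 to 0.10, with 1 positive and 5 negative values and a median of -0.122. TLN1 (ENSG00000137076, chr9:35696948-35732395, minus strand) had 361, 420 and 434 CPM against 419, 412 and 452 CPM, an overlap, with a value of -0.079 (SE 0.097). PTK2 had 83.0, 87.0 and 90.6 CPM against 110, 90.4 and 97.6 CPM, so overexpression 3 and control 2 were nearly equal. Its value of -0.19 (SE 0.10, unadjusted edgeR p 0.0888) was -0.068 with the length and GC trends removed. VCL and PXN had values of -0.19 and -0.17, FERMT2 of -0.019 and ILK of 0.10. With the trends removed the median of this role was -0.050, and without control 3 it was -0.064. VCL shares 1109 exonic bases with AP3M1 and ILK 2374 with TAF10, both on the opposite strand and with 10175 and 2917 counts in all, beside 12771 for VCL and 6743 for ILK. In all, 26 of the 47 genes share exonic bases with another listed gene. The overlaps differed in extent, and the partner of ITGB1, a long noncoding RNA, shares 42 bases and had 16 counts in all. Whether strand was used in counting is not given in the sources used here. It is thus not known whether reads of pairs on opposite strands were separated. ITGA1 and PELO lie on the same strand, so strand would not separate their reads.

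The libraries were compared by the mean deviation of the 39 genes from their own means, on the log2(CPM + 0.5) scale. It was -0.067, -0.009 and -0.052 in overexpression 1 to 3 and -0.001, 0.036 and 0.093 in control 1 to 3. Control 3 was highest and overexpression 1 lowest, and the groups did not overlap, though overexpression 2 and control 1 were close. How often other gene sets of this size separate was not tested, and the length and GC trends were not removed here. For the 73 other matrix and adhesion genes described at the end, the mean deviation was -0.109, 0.054 and -0.037 against 0.021, 0.022 and 0.048. There overexpression 2 was the highest library and the groups overlapped. Control 3 held the highest value of 15 of the 39 genes, against 16.5% of all genes, and overexpression 1 the lowest value of 15, against 20.2%. Control 1 held the highest value of 11 and the lowest of 9 genes, and 26.6% and 26.5% of all genes. All 6 intracellular proteins were above their own mean in control 3, and 0 of 6 laminins were above theirs in overexpression 1. Other roles differed, with 4 of 8 alpha subunits above in control 3 and 4 of 4 receptors above in overexpression 1. Over all 15055 tested genes, 7754 were above their own mean in control 3 and 7850 in overexpression 1.

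**Figure D4:**
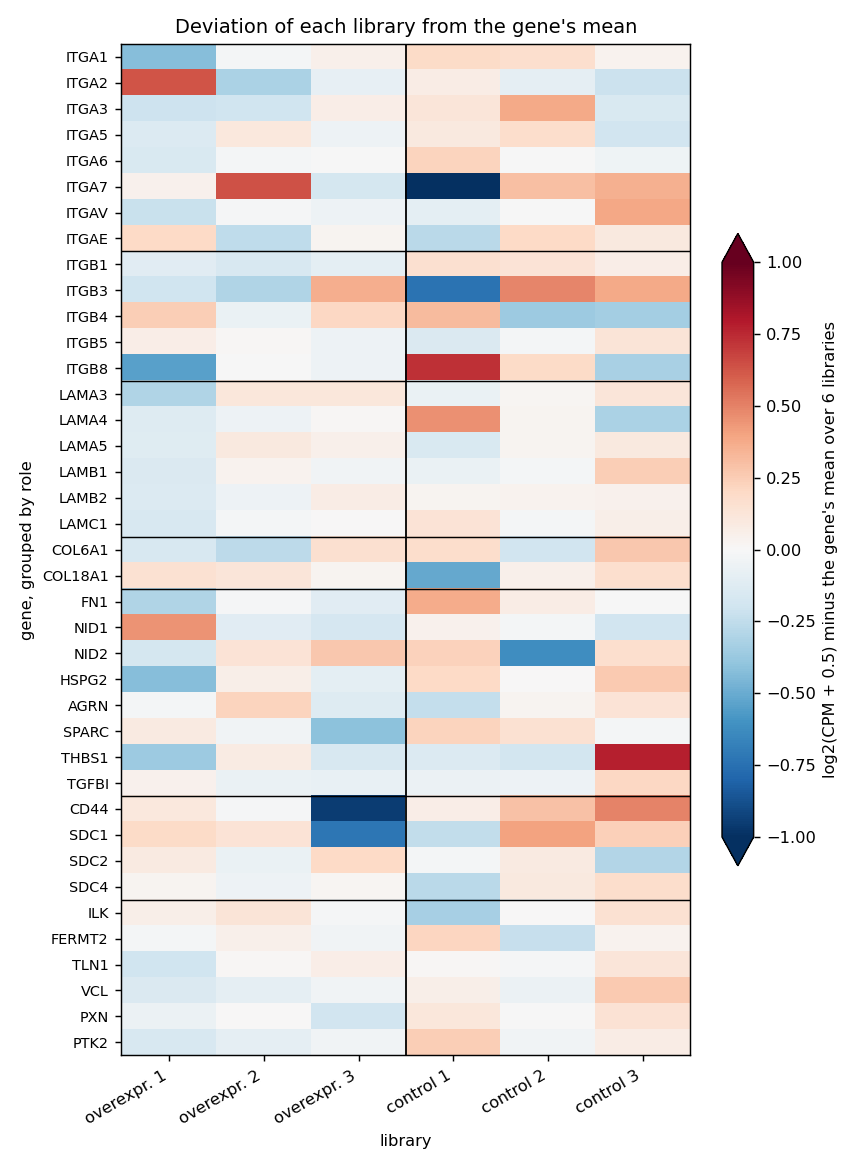
Deviation of log2(CPM + 0.5) from the mean of each gene over the 6 libraries, with 1 row per tested gene grouped by role (lines) and 1 column per library, red for above and blue for below the mean, capped at 1 in either direction. Control 3 is mainly red and overexpression 1 mainly blue, and the darkest cell is ITGA7 in control 1 at -1.15.

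Another 101 genes of matrix and adhesion were listed as the surroundings of these 47. Of these 73 were tested, 26 had positive and 47 (64.4%) negative log2 fold changes, the median was -0.065, and 0 passed an adjusted p of 0.05. Over all tested genes 49.5% were negative and the median was 0.002. By kind, 1 of 2 tested integrin subunits, 8 of 15 laminin and collagen chains, 11 of 18 matrix proteins and receptors and 27 of 38 intracellular proteins were negative, with medians of -0.076, -0.047, -0.047 and -0.137. CAV1, caveolin-1, which organises membrane caveolae and associates with integrins, was the 1 gene of the 73 at an unadjusted edgeR p under 0.05. Over all genes 3.08% were lower and 2.42% higher at that threshold. CAV1 had 15.6, 16.0 and 16.5 CPM with overexpression and 20.4, 18.6 and 20.8 CPM in controls, so the groups did not overlap. The log2 fold change was -0.31 (SE 0.11, unadjusted p 0.0209, adjusted p 0.797). COL14A1, a collagen that associates with fibrils, also did not overlap, at 12.1, 12.6 and 14.4 against 14.8, 15.2 and 17.7 CPM, with a value of -0.29 and an unadjusted edgeR p of 0.0635. Of the 73 genes these 2 lay wholly below the controls and 0 wholly above. Over all genes 6.50% were wholly below and 6.40% wholly above. The positive values with the smallest p were those of the Src family kinase FYN at 0.16 (SE 0.12, unadjusted edgeR p 0.221) and the laminin receptor BCAM at 0.13 (SE 0.11, unadjusted edgeR p 0.259), and both overlapped between groups.

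3 genes of that list were singled out after their values were seen, because they complete the receptors and trimers described above. VTN, vitronectin, the plasma ligand of receptors that contain ITGAV, stood at 204 CPM per kb, second to FN1 among the matrix genes named here, with a log2 fold change of 0.12 (SE 0.10). COL5A2, a fibrillar chain that pairs with COL5A1, had 61.3 CPM per kb although COL5A1 had a single count. LAMA1, the alpha chain of laminin-111, had 0 counts in all 6 libraries, which leaves LAMA5 as the alpha chain with the highest level among LAMA1, LAMA3, LAMA4 and LAMA5.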

How the data were processed

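RNA-seq of total RNA in 6 libraries of Huh7 cells (3 overexpression, 3 control, grouped by sample title) was analysed. The authors deposited 1 table of raw read counts per gene and of FPKM (counts scaled to length and depth) per library. TopHat2 2.0.9 and hg38 are named in the submitters' processing notes, and the counting tool, annotation release and strand setting are not given in the sources used here. Gene positions were the same in GENCODE 29 for 44 of the 47 genes, and lengths, GC content and 3′ UTRs came from it.

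The deposited counts were tested with edgeR (version 4.0.16, under R 4.3.3). Low genes were removed by filterByExpr (minimum count 10), which left 15055 genes, and libraries were scaled by TMM. A two-sided quasi-likelihood test (glmQLFit, glmQLFTest) of the group was run without covariates, and p-values were adjusted by Benjamini-Hochberg over all tested genes. The biological coefficient of variation was 16.1%. Standard errors follow from the F statistic, and log2(CPM + 0.5) entered the exact permutation tests. The fits were tested on simulated data.

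The 47 genes, the 7 roles and the lists of other adhesion genes and markers were chosen with earlier results of these data known. Values of every library are given for genes at an unadjusted p under 0.05 or without overlap, and in each role for the gene with the highest level per length and the one with the largest change in size among those with at least 1 CPM. HSPG2 and ITGB5 were added after their values were seen. Of the other adhesion genes, the 2 positive and 2 negative with the smallest p are named. Alternatives were RLE and upper-quartile scaling, DESeq2 1.42.0, limma 3.58.1 on log2(FPKM + 1) where 3 libraries reached 1 FPKM, no filter beyond 1 count, a mean of at least 50 counts, the replicate number as a block, removal of length and GC trends (splines with 5 degrees of freedom each) and leaving out each library.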

Additional observations from a re-analysis of the deposited data

How the results depend on the processing

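No adhesion gene passed an adjusted p of 0.05 under any alternative, with 0.669 as the lowest adjusted p. Over all genes the number of calls was 6 with edgeR, 28 with DESeq2 and 4 to 16 when 1 library was left out. Of 528 fold changes of single adhesion genes under the alternatives, 494 kept their direction and 34 reversed, in 19 of the 39 genes. The number at an unadjusted p under 0.05, 2 in the main test, was 1 with upper-quartile scaling, with a mean of at least 50 counts, with limma on log2(FPKM + 1) and with the replicate block, and 1 to 4 when 1 library was left out. Over all genes that number was 828 of 15055 in the main test and 820 with upper-quartile scaling. It was 651 of 11927 with a mean of at least 50 counts and 708 of 11746 with limma. With the replicate block it was 661, and 505 to 1131 when 1 library was left out. Genes without overlap, 2 in the main test, were 1 with upper-quartile scaling, no filter, limma and the length and GC correction, and 5 to 8 when 1 library was left out, where fewer values have to separate. The share of all genes without overlap was counted in the main test only, so these numbers have no background beside them. In the list of other adhesion genes, 1 at an unadjusted p under 0.05 became 0 with DESeq2 and limma and 0 to 3 when 1 library was left out.

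The median of the 39 genes was -0.13 to -0.040 with 1 library left out. Role medians moved for the matrix proteins to -0.062 without a filter and -0.080 with the length and GC correction, and ran from -0.198 to 0.026 with 1 library left out. Only ITGB1 and ITGB5 of the beta subunits were tested at a mean of at least 50 counts (median -0.113) and with limma (median -0.087). With 1 library left out, the beta median ran from -0.260 to 0.008. The collagen value of 0.201 with limma was that of COL18A1, the only chain tested there. For the intracellular proteins the median was -0.050 with the length and GC correction. Each median covers only the genes left in that fit, and the cause of the other moves was not tested.

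Reversed values were SDC4 at 0.001 with upper-quartile scaling, SDC4 at 0.021, ITGAE at 0.002 and FERMT2 at 0.012 with limma, and LAMA3 at 0.067 and FERMT2 at 0.051 with the length and GC correction. With 1 library left out, the ranges that crossed zero were -0.13 to 0.40 for ITGA2, -0.16 to 0.016 for ITGA5, -0.14 to 0.61 for ITGA7, -0.15 to 0.095 for ITGAE, -0.74 to 0.050 for ITGB3, -0.045 to 0.092 for ITGB5, -0.12 to 0.092 for LAMA3, -0.31 to 0.084 for LAMA4, -0.047 to 0.083 for LAMA5 and -0.007 to 0.31 for COL18A1. They were -0.088 to 0.25 for NID1, -0.16 to 0.36 for NID2, -0.059 to 0.13 for AGRN, -0.53 to 0.026 for THBS1, -0.11 to 0.026 for TGFBI, -0.40 to 0.005 for SDC1, -0.14 to 0.075 for SDC4, -0.018 to 0.22 for ILK and -0.13 to 0.091 for FERMT2.

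Libraries with the same replicate number did not deviate together, with correlations of -0.0357, -0.0231 and -0.0308 across genes. These values cannot tell whether such libraries were prepared together, which the labels do not give. With the replicate block 1 adhesion gene, ITGB1, had an unadjusted p under 0.05 and the median was -0.103. Ranks within a role were compared with those by the control means of CPM per kb, not by the means over all libraries. Against these, 29 of 39 genes kept their place with the deposited FPKM of the controls and 35 with the overexpression means. At these depths, genes such as ITGB3 with 52 counts in all have intervals too wide to show a change of the size seen in ITGB1.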
